A study of Mus musculus with 24 samples.

Results

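The proteasome subunit genes were taken as the protein-coding genes whose symbol starts with Psma, Psmb, Psmc, Psmd or Psme and whose mean level was at least 5 CPM (a gene's counts scaled to a common total of gene counts per library) over 24 libraries. This rule gave 42 of the 55414 genes in the count tables. Of 49 gene lines with such a symbol, 45 were protein-coding, and 3 of these lay under the threshold. They were Psmc3ip, a recombination factor that shares only the prefix, at 2.21 CPM, the testis subunit gene Psma8 at 0.937 CPM, and the thymus subunit gene Psmb11 with counts in 1 library. The lowest member was Psmd9 at 20.5 CPM, so the threshold fell in a gap and no member was close to it. The members were 7 alpha ring genes, 4 beta ring genes without catalytic activity, 3 constitutive catalytic genes (Psmb5, Psmb6, Psmb7), 3 immune catalytic genes (Psmb8, Psmb9, Psmb10), 6 base ATPase genes, 3 other base genes, 8 lid genes, 3 chaperone genes of base assembly, 4 activator genes (Psme1 to Psme4), and Psme2b. Psme2b is a copy of Psme2 with 1 exon in the annotation against 11 in Psme2, and reads of the pair may have been split between them.

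The proteasome degrades proteins tagged with ubiquitin. Its barrel-shaped core is built from alpha rings, which form the gate, and beta rings, which hold the proteolytic sites. The regulatory particle, made of a base with an ATPase ring and a lid, binds and unfolds ubiquitin-tagged substrates. In cells exposed to interferons, and in dendritic cells as a standing feature, newly built cores take up immune catalytic subunits in place of the constitutive ones: Psmb8 in place of Psmb5, Psmb9 in place of Psmb6 and Psmb10 in place of Psmb7. Psme1 and Psme2 encode a cap that opens the core without ATP and is induced by interferon, and these cores supply peptides for presentation on MHC class I.

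Libraries of messenger RNA came from mouse dendritic cells (DCs) grown from bone marrow with 20 ng/ml of the cytokine GM-CSF (GM cultures, taken on day 8 and called monocyte-derived DCs in the series) or with 20 ng/ml GM-CSF plus 200 ng/ml of the growth factor FLT3L (FL cultures, taken on day 16 and called cDC1, the type 1 conventional DCs). Part of the cells was harvested at the start (t0), and the rest after 24 h with AZD5582 or with its solvent DMSO. This compound blocks inhibitor of apoptosis proteins, and compounds of its class cause their loss and thereby switch on the non-canonical NF-kB pathway. The GM groups were t0, DMSO, and AZD5582 at 0.1, 0.5 and 1 µM. The FL groups were t0, DMSO, and AZD5582 at 0.05 µM. Each of the 8 groups had 3 libraries, numbered 1 to 3 in GM and 91, 94 and 95 in FL cultures. The protocol names Cas9-EGFP or wild-type C57BL/6JRj mice as marrow donors without saying which served for which library, and the genotype entry is blank for all. The culture types differ in FLT3L, day of culture and cultures at once, and these cannot be told apart.

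Depth ran from 27012555 to 85820558 counts on genes per library. The cDC1 markers Xcr1, Clec9a and Cadm1 stood at means of 241, 130 and 128 CPM in FL cultures at t0 and under 1 CPM in GM cultures. In FL cultures with DMSO they had mean levels of 18.7, 57.8 and 41.5 CPM, and with AZD5582 of 2.03, 27.3 and 12.02 CPM. Others of the 8 markers went another way: Batf3 stood at means of 55.2, 109.7 and 119 CPM in FL t0, DMSO and AZD5582, and Irf8 at 1515, 892 and 2157. Of the 8, 1 rose and 3 fell over 24 h in DMSO in FL cultures, and 3 fell with AZD5582. In bulk RNA, fewer cells of a type and less RNA per cell cannot be told apart. Libraries of 2 kinds stood apart. GM 1 µM replicate 1 carried 8.04% mitochondrial counts, where replicates 2 and 3 carried 3.96% and 4.27%. After the scaling described below, its members summed to 9332 CPM against 7164 and 7471. FL culture 91 with DMSO then summed to 6692 CPM over the members against 4819 and 4810 in cultures 94 and 95. Much of this distance came with the scaling. In plain CPM, without it, the members summed to 7614 against 6695 and 6974 in GM 1 µM. In FL DMSO they summed to 5906 against 5764 and 5600.

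Levels below are CPM scaled by the trimmed mean of M values (TMM). Levels of the dividing-cell genes and cell type markers are instead in plain CPM, without this scaling. Differences are log2 ± SE from edgeR's quasi-likelihood test, with p-values adjusted over all genes tested by the Benjamini-Hochberg method. Levels were scaled over all 24 libraries, and differences within a culture type over its own libraries, so that a small difference can have another sign than the levels beside it. A gene is called, and said to have risen or fallen, at an adjusted p under 0.05. Summed over classes, the 14 core genes (alpha ring, beta ring and constitutive catalytic) stood at 1781, 1704 and 1676 CPM in the 3 GM DMSO libraries and at 3230, 2412 and 2376 with 1 µM AZD5582. The 17 regulatory genes (base and lid) summed to 1688, 1648 and 1660 with DMSO and 2115, 1827 and 1873 with 1 µM. The 3 immune genes summed to 544, 581 and 547 CPM with DMSO and to 1237, 864 and 1023 with 1 µM. The activators Psme1 and Psme2 summed to 719.5, 824 and 696 with DMSO and to 2325, 1662 and 1797 with 1 µM. In each class the lowest 1 µM library lay above the highest DMSO library, and the distance was smallest for the regulatory genes. In FL cultures the activators summed to 1745, 897 and 951 CPM with DMSO and 2434, 1626 and 1986 with 0.05 µM. Here the groups overlapped through culture 91, but only with this scaling. In plain CPM the sums were 1540, 1073 and 1107 with DMSO and 2092, 1733 and 1904 with 0.05 µM, without overlap.

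**Figure D1:**
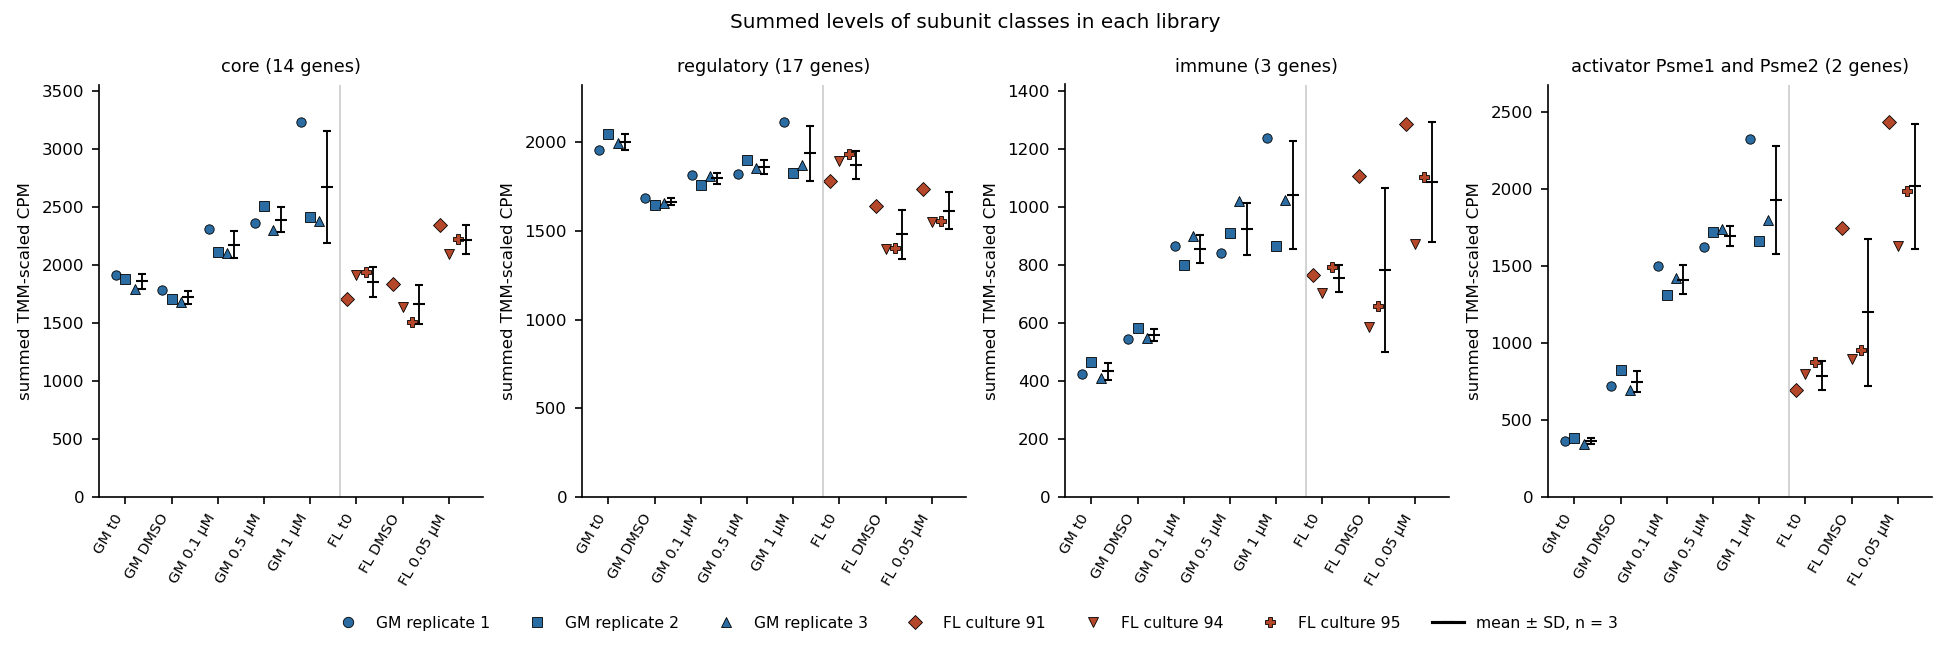
Summed TMM-scaled CPM of 4 subunit classes (y axes, from 0) in the 24 libraries, by group (x axes). Points are libraries with a marker per replicate or culture, blue for GM and red for FL, and dashes with bars are means ± SD of 3 libraries. The immune and activator sums are lowest in GM t0, and the mean regulatory sum is highest there.

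Whether AZD5582 changed proteasome genes in GM cultures was asked at 3 doses against the same DMSO libraries, so the 3 comparisons share their controls. At 0.1 µM, 24 of 42 members rose and none fell, where 40.3% of 16152 genes were called and 19.9% were higher. The median log2 difference of the members was 0.30, against -0.01 over all genes. At 0.5 µM, 31 members rose and none fell (53.5% of all genes called, 25.8% higher), with a median of 0.41 against -0.03. At 1 µM, 37 rose and none fell (55.1% called, 26.9% higher), with a median of 0.56 against -0.01. Without GM 1 µM replicate 1, 34 members rose (53% of all genes called). The direction of the smaller differences depended on the scaling: with plain library totals, which put the median of all genes at -0.23 at 1 µM and -0.19 at 0.5 µM, 23 members rose and 3 fell at 1 µM, and 21 rose and 3 fell at 0.5 µM. The 3 that fell were Psmd3, Psmd8 and Psme3 at 1 µM and Psmd3, Psmd6 and Psmd8 at 0.5 µM. Calls that held with each library of the compared groups left out in turn numbered 15 of 24, 24 of 31 and 28 of 37 at the 3 doses. The 9 that did not hold at 1 µM were Psmc1, Psmc2, Psmd2, Psmd5, Psmd7, Psmd9, Psmd12, Psmd14 and Psme4.

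**Figure D2:**
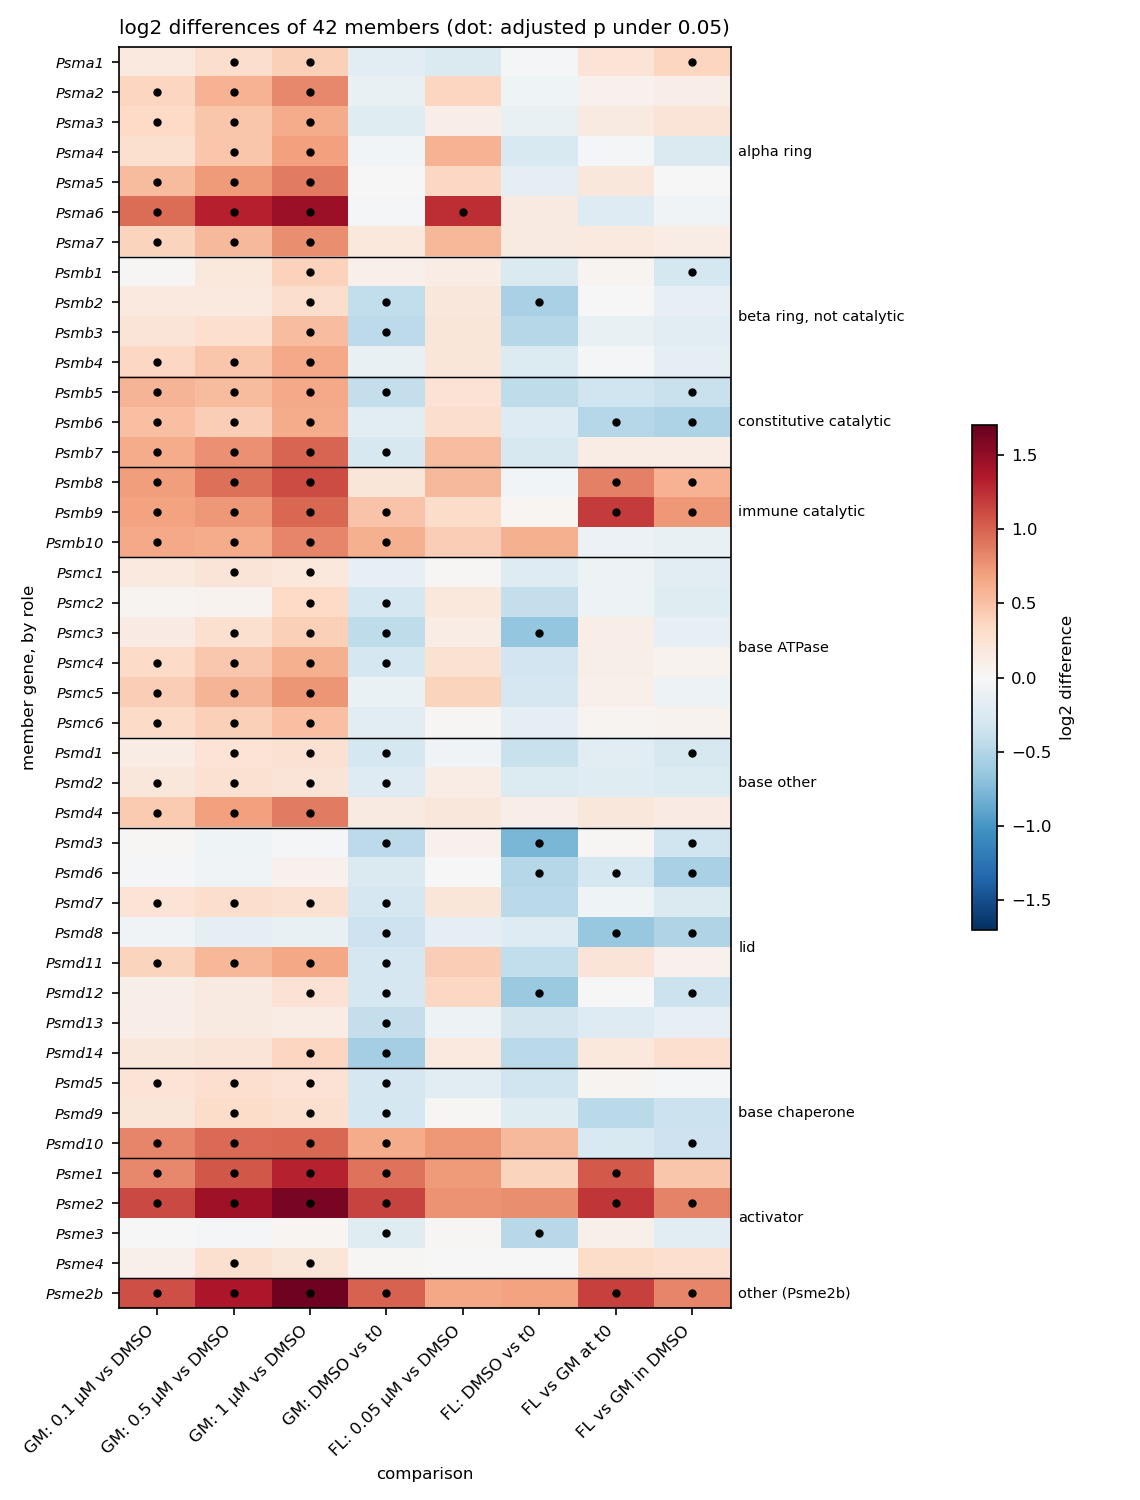
log2 differences of the 42 members (rows, by role) in 8 comparisons (columns), from blue for lower to red for higher in the first-named group, with a dot at an adjusted p under 0.05. Psme1, Psme2, Psme2b and Psma6 carry the darkest red at 1 µM AZD5582, and 4 of the 8 lid genes have no dot there.

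The activators separated into a pair that rose steeply and a pair that moved little. Psme1 (ENSMUSG00000022216), on chromosome 14, stood at 336, 379.6 and 314 CPM in the DMSO libraries. With AZD5582 it stood at 595, 548 and 589.8 with 0.1 µM, 634, 666 and 713 with 0.5 µM and 954, 667 and 731 with 1 µM. Each treated library was above each DMSO library, and the differences were 0.82 ± 0.12, 1.06 ± 0.12 and 1.30 ± 0.12. Psme2 (ENSMUSG00000079197), the partner subunit on the same chromosome, stood at 383, 444 and 382 with DMSO. Its levels were 901, 764 and 833 with 0.1 µM, 989, 1053 and 1026 with 0.5 µM and 1372, 995 and 1066 with 1 µM. Again no treated library overlapped the DMSO libraries, and the differences were 1.12 ± 0.12, 1.44 ± 0.12 and 1.62 ± 0.12. Its copy Psme2b differed by 1.66 ± 0.13 at 1 µM. Psme2b took 6.10% to 8.18% of the counts of the pair in all 24 libraries, so its rise cannot be told apart from reads of Psme2 placed on the copy. The copy also overlaps the gene models Gm12185 and 9930111J21Rik1 on the same strand, whose reads may be mixed with its own. Psme3, which encodes a nuclear activator of the same family, stood at 105, 96.8 and 96.5 with DMSO and 94.6, 95.9 and 92.6 at 1 µM, and its differences of -0.01 ± 0.07, -0.02 ± 0.07 and 0.03 ± 0.07 were not called. Psme4 encodes a large unrelated activator. It differed by 0.09 ± 0.08, 0.28 ± 0.08 and 0.21 ± 0.08, was called at 0.5 and 1 µM, and at 1 µM changed sign to -0.01 with plain library totals. The call at 1 µM was also lost without 1 µM replicate 2 (adjusted p = 0.176) and without DMSO replicate 1 or 2 (0.168 and 0.151), and that at 0.5 µM without DMSO replicate 1 (0.0552).

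All 3 immune catalytic genes rose at each dose. Psmb8 (ENSMUSG00000024338), whose product has the chymotrypsin-like activity of the immune core, stood at 285, 315 and 286 CPM with DMSO. It stood at 471, 432 and 477 with 0.1 µM, 476, 530.0 and 577 with 0.5 µM and 706, 499.6 and 559 with 1 µM. Neighbouring doses overlapped, and no treated library overlapped the DMSO group, and the differences were 0.71 ± 0.12, 0.93 ± 0.12 and 1.11 ± 0.12. Psmb9 stood at 124, 140.0 and 133 with DMSO and 289, 200.3 and 230.2 at 1 µM, with differences of 0.68 ± 0.12, 0.74 ± 0.12 and 0.97 ± 0.12. Psmb10, whose product replaces the trypsin-like subunit, stood at 135, 126 and 128 with DMSO and 242, 164 and 234 at 1 µM, with differences of 0.64 ± 0.12, 0.64 ± 0.12 and 0.83 ± 0.12. The 9 calls of these genes held with each library left out. Without 1 µM replicate 1 the 1 µM differences were 0.93 ± 0.09 for Psmb8, 0.79 ± 0.09 for Psmb9 and 0.71 ± 0.12 for Psmb10.

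The constitutive catalytic genes rose as well. Psmb5, the constitutive chymotrypsin-like subunit, stood at 81.5, 71.1 and 77.7 CPM with DMSO and 113, 100.2 and 113 at 0.1 µM, with differences of 0.57 ± 0.14, 0.53 ± 0.13 and 0.64 ± 0.14 at the 3 doses. Psmb6, the caspase-like subunit, stood at 132, 126 and 123 with DMSO and 172, 169 and 176 at 0.1 µM, with differences of 0.51 ± 0.15, 0.42 ± 0.15 and 0.63 ± 0.15. Its call at 0.5 µM was lost without 0.5 µM replicate 2 (adjusted p = 0.0677) and without DMSO replicate 2 or 3 (0.0557 and 0.0579). Psmb7, the trypsin-like subunit, stood at 83.7, 83.8 and 83.9 with DMSO and 186, 137 and 139 at 1 µM, with differences of 0.63 ± 0.11, 0.77 ± 0.11 and 0.99 ± 0.11. For all 3 genes the 0.1 µM libraries lay above the DMSO libraries. The median difference of the 3 constitutive genes was 0.57, 0.53 and 0.64 over the doses, and that of the 3 immune genes 0.68, 0.74 and 0.97. The order did not hold gene by gene, since Psmb7 had larger differences than Psmb9 and Psmb10 at 0.5 and 1 µM, and the 2 classes were not tested against each other. Without 1 µM replicate 1, which had 243 CPM of Psmb6 where replicates 2 and 3 had 142 and 159, the 1 µM differences were 0.41 ± 0.10 for Psmb5, 0.34 ± 0.08 for Psmb6 and 0.81 ± 0.08 for Psmb7.

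Among the structural genes of the core, Psma6 stood apart. Psma6 (ENSMUSG00000021024), an alpha ring gene on chromosome 12 with Nfkbia, an inhibitor of NF-kB, among its 2 nearest coding neighbours, stood at 179, 178 and 161 CPM with DMSO. With AZD5582 it stood at 359.6, 321 and 275 with 0.1 µM, 409, 455 and 344 with 0.5 µM and 498, 458 and 352 with 1 µM. No treated library overlapped the DMSO libraries, and the differences were 0.95 ± 0.14, 1.32 ± 0.14 and 1.45 ± 0.14. The other 6 alpha ring genes reached 0.41 (Psma1) to 0.89 (Psma5) at 1 µM, and all 7 rose at 0.5 and 1 µM. Without 1 µM replicate 1 the 1 µM differences were 1.32 ± 0.13 for Psma6, 0.27 ± 0.07 for Psma1 and 0.46 ± 0.08 for Psma4 (with it, 0.41 and 0.70 for the last 2). Of the 4 beta ring genes without catalytic activity, only Psmb4 (0.35) rose at 0.1 µM, while all 4 rose at 1 µM, from 0.29 (Psmb2) to 0.64 (Psmb4). Without 1 µM replicate 1, Psmb1, Psmb2 and Psmb3 went from 0.39, 0.29 and 0.52 to 0.22, 0.18 and 0.26, still called. With plain library totals Psmb1 and Psmb2 were not called at 1 µM (adjusted p = 0.132 and 0.550).

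In the regulatory particle, the lid genes had the smallest median difference. The 6 ATPase genes rose at 1 µM by 0.18 (Psmc1) to 0.75 (Psmc5), with a median of 0.46. The call of Psmc2 (0.34) was lost without 1 µM replicate 1 (0.16 ± 0.08, adjusted p = 0.0986) and without DMSO replicate 3 (0.0601), and that of Psmc1 without any 1 of the 6 libraries other than 1 µM replicate 1 (0.0739 to 0.117). The ubiquitin receptor gene Psmd4 stood at 118, 114 and 116 CPM with DMSO and 236, 166 and 192 at 1 µM, a difference of 0.88 ± 0.11, whereas the large scaffold genes Psmd1 and Psmd2 differed by 0.26 ± 0.07 and 0.22 ± 0.07. The Psmd2 call was lost without 1 µM replicate 2 or 3 or DMSO replicate 1 or 2 (0.0541 to 0.0814). With plain library totals, Psmc1 and Psmd2 turned to -0.05 and -0.01 and were not called. Of 8 lid genes, 4 rose at 1 µM (Psmd7, Psmd11, Psmd12, Psmd14) and the median was 0.19. The largest of these was Psmd11 (0.65 ± 0.09), and the calls of Psmd12 and Psmd14 were lost without 1 µM replicate 1 (adjusted p = 0.164 and 0.350) and without any 1 of the DMSO libraries (0.0541 to 0.0844). That of Psmd7 was lost without DMSO replicate 2 (0.0683). Psmd8, another lid gene, stood at 218, 216 and 214 with DMSO and 190.2, 176 and 183 at 1 µM, a difference of -0.13 ± 0.08 that was not called (adjusted p = 0.17), although no 1 µM library overlapped the DMSO group. Of the 3 chaperone genes of base assembly, all rose at 1 µM. Psmd10, which encodes gankyrin, stood at 46.4, 46.4 and 45.9 with DMSO and 76.9, 81.3 and 77.0 already at 0.1 µM, with differences of 0.83 ± 0.07, 0.96 ± 0.07 and 0.97 ± 0.07. Psmd5 and Psmd9 differed by 0.25 ± 0.08 and 0.27 ± 0.10 at 1 µM. Both calls were lost without 1 µM replicate 3 (adjusted p = 0.0597 and 0.133), and that of Psmd9 also without DMSO replicate 2 or 3 (0.0534 and 0.107).

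**Figure D3:**
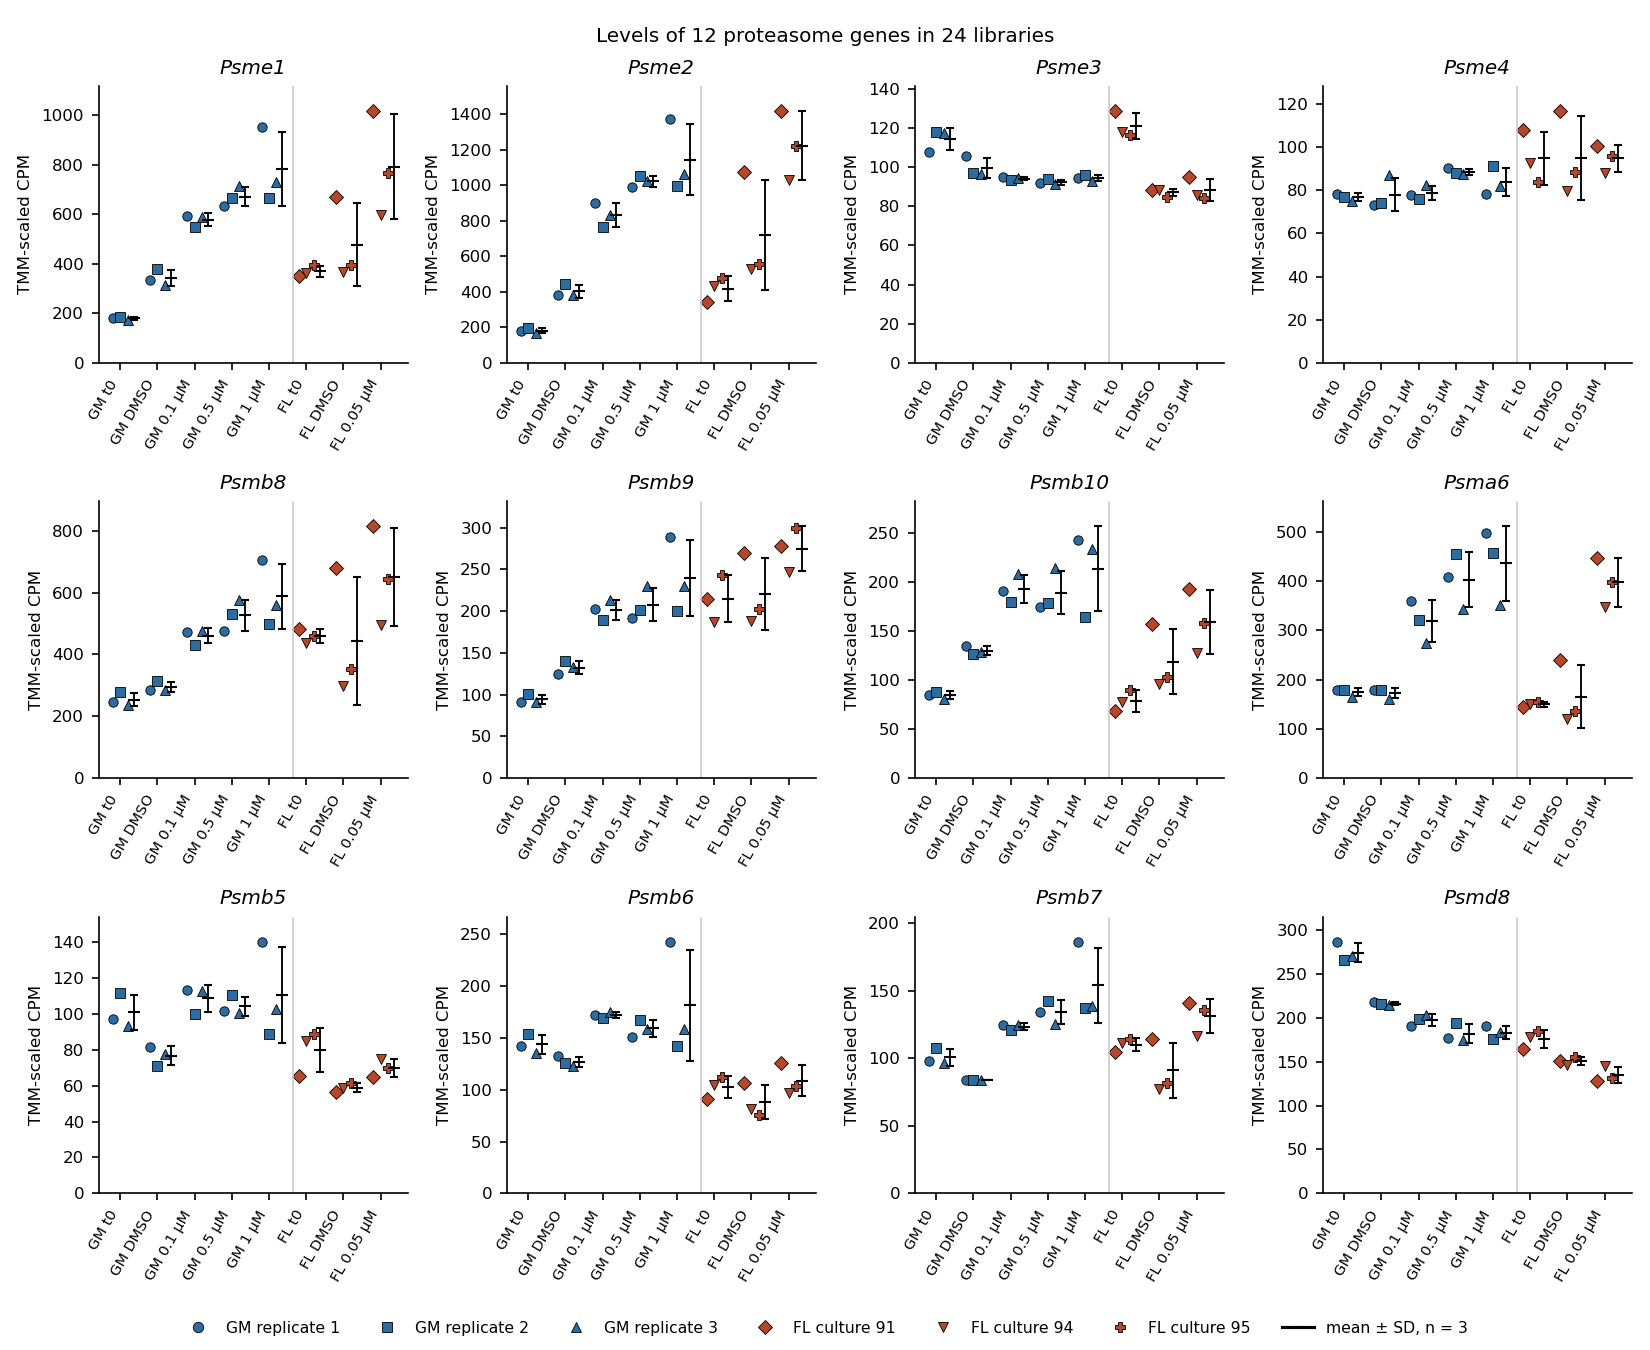
TMM-scaled CPM (y axes, from 0) of 12 members in the 24 libraries, by group (x axes). Points are libraries, blue for GM and red for FL with a marker per replicate or culture, and dashes with bars are means ± SD of 3 libraries. Psme1, Psme2, Psma6, Psmb5, Psmb6, Psmb7, Psmb8, Psmb9 and Psmb10 lie higher in each GM library with AZD5582 than in any GM DMSO library. Psme3, Psme4 and Psmd8 do not.

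Between the lowest and highest GM dose, 14 of 42 members were higher at 1 µM than at 0.1 µM and none lower, where 18.8% of all genes were called and 6.93% were higher. Psme1 differed by 0.48 ± 0.12, Psme2 by 0.50 ± 0.12, Psmb7 by 0.36 ± 0.11, Psmb8 by 0.40 ± 0.12, Psma6 by 0.49 ± 0.14 and Psma2 by 0.45 ± 0.14. Psmb5, Psmb6, Psmb9 and Psmb10 differed by 0.07, 0.12, 0.29 and 0.19 and were not called. This comparison depended on single libraries. It called 5 members without 1 µM replicate 1, 22 without 1 µM replicate 2, 1 without 0.1 µM replicate 2 and 5 without 0.1 µM replicate 3, where 16.2%, 17.6%, 11% and 11.8% of all genes were called. Psme2b alone was called with each library left out. Without 1 µM replicate 1 the differences were 0.29 ± 0.09 for Psme1 and 0.33 ± 0.09 for Psme2, still called, 0.22 ± 0.09 for Psmb8 (adjusted p = 0.130) and 0.37 ± 0.13 for Psma6 (0.0720). Psma2 and Psmb7 then differed by 0.18 ± 0.08 and 0.18 ± 0.08 and were not called (0.132 and 0.133), and Psmb5 and Psmb6 turned to -0.16 ± 0.10 and -0.17 ± 0.08.

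The ratio of immune to constitutive counts within a library does not depend on library size. It can be compared between libraries, not between pairs, since gene lengths differ. The Psmb8 to Psmb5 ratio was 2.54, 2.49 and 2.54 in GM t0 libraries, 3.49, 4.43 and 3.68 with DMSO, 4.16, 4.31 and 4.23 with 0.1 µM, 4.69, 4.80 and 5.74 with 0.5 µM and 5.03, 5.63 and 5.45 with 1 µM. All libraries with 0.5 or 1 µM exceeded the DMSO range, and those with 0.1 µM lay within it. The Psmb9 to Psmb6 ratio was 0.639, 0.654 and 0.668 at t0, 0.94, 1.11 and 1.08 with DMSO and 1.19, 1.41 and 1.45 at 1 µM, and each 1 µM library was above the DMSO libraries. The Psmb10 to Psmb7 ratio was 0.869, 0.816 and 0.831 at t0, 1.61, 1.50 and 1.53 with DMSO and 1.30, 1.20 and 1.69 at 1 µM, and here the 1 µM libraries fell on both sides of the DMSO range. Between GM t0 and GM DMSO, the libraries did not overlap for any of the 3 pairs. In FL cultures the Psmb8 to Psmb5 ratio was 7.36, 5.18 and 5.19 at t0, 12.1, 5.09 and 5.72 with DMSO and 12.6, 6.65 and 9.24 with 0.05 µM, in the order of cultures 91, 94 and 95. Culture 91 was highest in each of these groups. The Psmb9 to Psmb6 ratio had group means of 2.11 ± 0.299, 2.51 ± 0.193 and 2.55 ± 0.349 (SD, n = 3), all above the GM libraries. The Psmb10 to Psmb7 ratio was 0.650, 0.698 and 0.787 at t0, 1.37, 1.25 and 1.26 with DMSO and 1.36, 1.09 and 1.16 with 0.05 µM. For this pair each FL library at t0 and with DMSO lay below the GM libraries of the same condition.

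**Figure D4:**
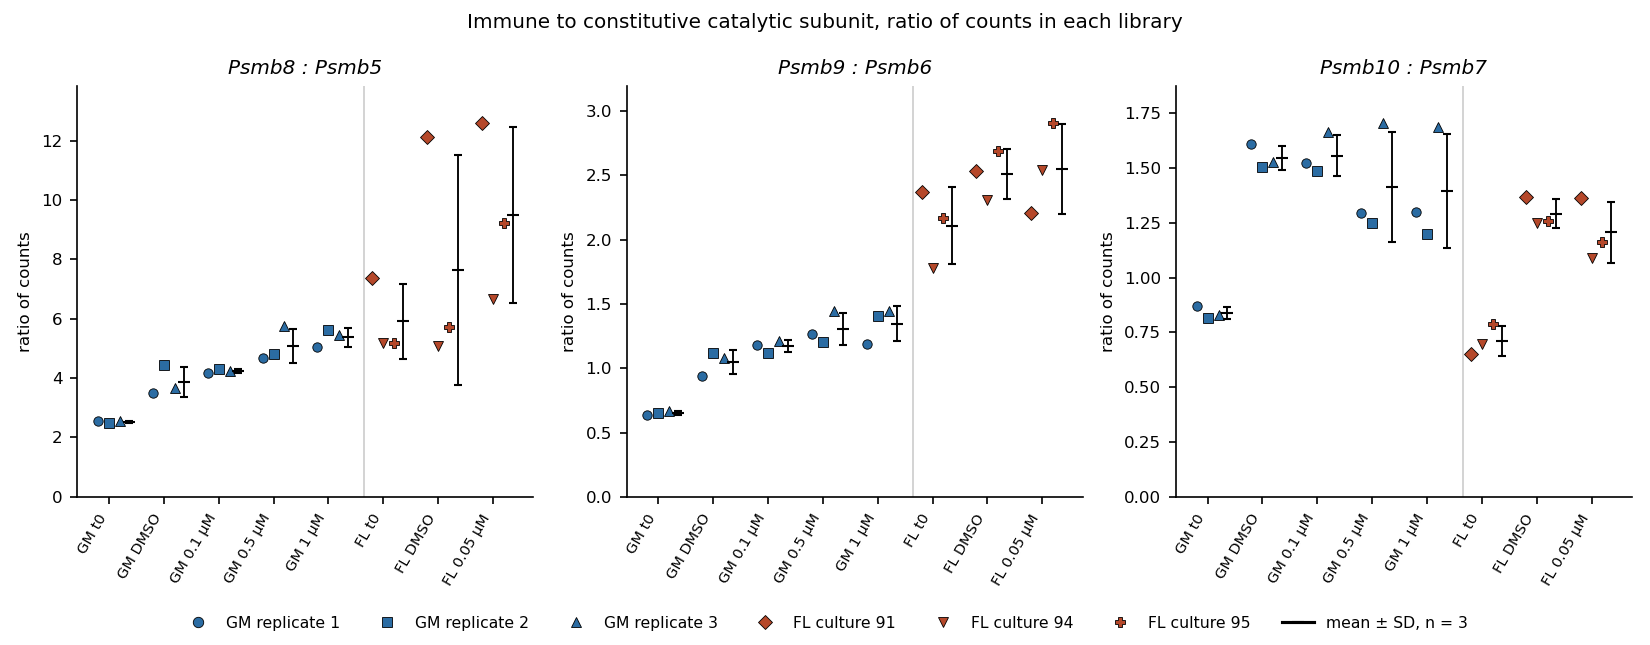
Ratio of counts of an immune to a constitutive catalytic gene (y axes, from 0) for 3 pairs in the 24 libraries, by group (x axes). Points are libraries, blue for GM and red for FL with a marker per replicate or culture, and dashes with bars are means ± SD of 3 libraries. For all 3 pairs the GM t0 libraries lie below the GM DMSO libraries, and for Psmb9 to Psmb6 the FL libraries lie above the GM libraries. For Psmb10 to Psmb7 the FL t0 and FL DMSO libraries lie below those of GM t0 and GM DMSO.

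During 24 h in DMSO, 2 of 3 immune genes and the activator genes Psme1 and Psme2 of GM cultures rose while 12 of 17 base and lid genes fell. Against t0, 6 of 42 members rose and 19 fell, where 47.5% of all genes were called, 27.2% higher and 20.3% lower. The members' median was -0.20 against 0.09 over all genes. Those that rose were Psme1, Psme2, Psme2b, Psmb9, Psmb10 and Psmd10. Psme1 stood at 181, 186 and 174 CPM at t0 and rose by 0.92 ± 0.12, and Psme2 at 181, 194 and 168 and rose by 1.15 ± 0.12. Psmb10 stood at 85.0, 87.9 and 80.3 at t0 and rose by 0.61 ± 0.12, Psmb9 at 91.1, 101 and 90.7 and rose by 0.48 ± 0.12. In these 4 genes the t0 and DMSO libraries did not overlap. Psmb8 differed by 0.20 ± 0.12 and was not called (adjusted p = 0.175). Psmd10 rose by 0.64 ± 0.07. These 6 rises held with each library left out.

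Of those that fell over the 24 h, 12 were among the 17 regulatory genes and 4 among the 14 core genes, and 7 of 8 lid genes fell. Psmd14, the deubiquitinase of the lid, stood at 85.3, 104 and 86.4 CPM at t0 and 62.8, 62.9 and 60.8 with DMSO, a difference of -0.57 ± 0.14. The beta ring gene Psmb3 and the lid gene Psmd3 differed by -0.45 and -0.44, and Psmd8 went from 287, 266 and 269.9 to 218, 216 and 214 CPM (-0.35 ± 0.08). The 4 core genes were Psmb2, Psmb3, Psmb5 and Psmb7. Psmb5 differed by -0.40 ± 0.13, a call lost without DMSO replicate 2 or t0 replicate 2 (adjusted p = 0.0798 and 0.0963), and Psmb7 by -0.28 ± 0.11, a call lost without any 1 of the 6 libraries (0.0635 to 0.170). Psmb6 differed by -0.19 ± 0.14 and was not called. Psme3 differed by -0.21 ± 0.07, a call lost without DMSO replicate 2 or 3 or t0 replicate 2 or 3 (0.0712 to 0.0871), and Psme4 by 0.01 ± 0.08. No alpha ring gene was called. Without t0 replicate 2, 16 members were called, 10 of them lower (39.4% of all genes called). All 14 genes of dividing cells fell over the 24 h in DMSO, with sums of 1811 to 2253 CPM at t0 and 315 to 408 with DMSO. All 6 markers of mature DCs rose over the same time, with sums of 1531 to 1826 CPM at t0 and 8368 to 11110 with DMSO. Against DMSO, 13 of the 14 dividing-cell genes also fell at 0.5 and at 1 µM, where 31 and 37 members rose. Of all genes, 27.7% and 28.2% were lower there. At 0.1 µM 1 of the 14 rose and 1 fell. The part of either list in the members' changes was not tested.

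In FL cultures, 0.05 µM AZD5582 raised 1 of 42 members against DMSO and lowered none, where 2.9% of 15961 genes were called, 1.62% higher and 1.28% lower. It was Psma6. In the order of cultures 91, 94 and 95, Psma6 stood at 239, 120.3 and 137 CPM with DMSO and 446, 348 and 399 with AZD5582, a difference of 1.26 ± 0.26 (adjusted p = 0.0429). Each treated library was above each DMSO library, and the log2 difference within cultures was 0.90, 1.53 and 1.54. The call was lost without the AZD5582 library of culture 91 or 95 (adjusted p = 0.104 and 0.148) and without the DMSO library of culture 94 or 95 (0.110 and 0.180). With the culture as a block, which takes the pairing of these libraries into account, the difference was 1.30 ± 0.22 (adjusted p = 0.0204). No other member was then called, where 6.88% of all genes were. The members' median was 0.20 against -0.05 over all genes. At an unadjusted p under 0.05 there were 12 members, a count not made for all genes. In simulated data this comparison recovered 1% of 2-fold changes. Those data held no pairing, and their changed genes were drawn from all but the lowest genes. The 1% is thus not the share for the members, whose spread may differ. A member not called may still have changed.

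Psme1, Psme2 and the 3 immune genes did not pass the test with 0.05 µM, although each had a positive difference within each culture. Psme1 stood at 669.6, 367 and 395 CPM with DMSO and 1016, 596 and 766 with AZD5582, a difference of 0.73 ± 0.28 (adjusted p = 0.228). Psme2 stood at 1075, 529.9 and 556 with DMSO and 1418, 1030.3 and 1220.5 with AZD5582, a difference of 0.76 ± 0.30 (adjusted p = 0.241). In both genes the DMSO library of culture 91 lay above the AZD5582 library of culture 94, so the groups overlapped at this scaling. In plain CPM the order of these 2 libraries was the reverse, with sums over both genes of 1540 and 1733. Psmb8 stood at 681, 299.5 and 352 with DMSO and 814, 497 and 644 with AZD5582, a difference of 0.55 ± 0.32. Psmb9 and Psmb10 differed by 0.32 ± 0.19 and 0.42 ± 0.24, Psmb5, Psmb6 and Psmb7 by 0.24 ± 0.15, 0.30 ± 0.18 and 0.52 ± 0.18, and Psme3 and Psme4 by 0.02 ± 0.12 and -0.01 ± 0.18. Within cultures, 25 of 42 members were higher in all 3 and 3 were lower in all 3. The members' medians were 0.25, 0.22 and 0.28 in cultures 91, 94 and 95. These within-culture counts were not made for all genes, so they do not set the members apart.

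Leaving out culture 91 changed the calls in FL cultures. Without its 3 libraries, a choice made after the data were seen, 10 members rose with 0.05 µM and none fell, where 14.1% of all genes were called. They were Psma4, Psma6, Psma7, Psmb7, Psmb8, Psmd10, Psmd11, Psme1, Psme2 and Psme2b. Psma6 then differed by 1.58 ± 0.15, Psme2 by 1.09 ± 0.16, Psme1 by 0.88 ± 0.17, Psmb8 by 0.85 ± 0.17 and Psmb7 by 0.70 ± 0.14. Leaving out its DMSO library alone also gave 10 members (12% of all genes), while leaving out any other single library of the 2 groups gave 0 or 1 (0.103% to 2.64%). The neutrophil markers ranged from 1750 to 11430 CPM among the FL DMSO libraries and from 144 to 3681 CPM with AZD5582, as a sum over 8 genes, and their part in the members' levels was not tested.

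Over 24 h in DMSO, 6 of 42 members fell in FL cultures and none rose, where 10.1% of genes were called, 4.96% higher and 5.18% lower. They were Psmb2, Psmc3, Psmd3, Psmd6, Psmd12 and the activator gene Psme3. The lid gene Psmd3 stood at 83.4, 78.9 and 78.5 CPM at t0 and 51.2, 46.5 and 41.7 with DMSO, a difference of -0.78 ± 0.17. Psmc3, an ATPase gene, differed by -0.66 and the lid gene Psmd12 by -0.63, and no library of these 3 genes overlapped between the groups. Psme3 stood at 129, 118 and 117 at t0 and 88.0, 88.3 and 84.8 with DMSO (-0.47 ± 0.12). The count went to 0 without the DMSO library of culture 95 or any 1 t0 library, to 4 without the DMSO library of culture 94, and to 5 without that of culture 91. The share over all genes was 0.0787% to 1.41% without a t0 library, and 4.79%, 8.86% and 6.03% without the DMSO library of culture 95, 94 or 91. Without all of culture 91, 9 members fell (10.5% of all genes called), and Psmb2, Psmd6 and Psme3 were no longer among them (adjusted p = 0.0503, 0.0599 and 0.0594). With the culture as a block, 10 members fell and none rose (19.5% of all genes called). The immune genes were not called: Psmb8, Psmb9 and Psmb10 differed by -0.05 ± 0.32, 0.04 ± 0.19 and 0.60 ± 0.24. The cultures moved in opposite directions for Psmb8, with differences of 0.50 in culture 91 and of -0.55 and -0.39 in cultures 94 and 95. Psme1 and Psme2 differed by 0.37 ± 0.28 and 0.79 ± 0.30. Within culture 91 the differences were 0.93 and 1.66. They were 0.02 and 0.28 in culture 94 and -0.0020 and 0.21 in culture 95. Psme4 differed by 0.01 ± 0.18 and Psmb5, Psmb6 and Psmb7 by -0.43 ± 0.15, -0.22 ± 0.18 and -0.27 ± 0.18.

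At t0, Psmb8, Psmb9, Psme1, Psme2 and Psme2b were higher in FL than in GM cultures, and Psmb6, Psmd6 and Psmd8 were lower. These 5 and 3 of 42 members were a smaller share than the background, where 40.9% of 17262 genes were called, 23.4% higher and 17.5% lower. The members' median was 0.05 against 0.09 over all genes. With plain library totals, which put the median of all genes at 0.17, 9 members were higher and 2 lower. Psmb9 stood at 215, 187 and 243 CPM in FL and 91.1, 101 and 90.7 in GM cultures, a difference of 1.19 ± 0.15. Psmb8 stood at 483, 439 and 460.4 in FL and 247, 278 and 237 in GM cultures (0.86 ± 0.23). Psme1 stood at 351, 363 and 395 in FL and 181, 186 and 174 in GM cultures (1.04 ± 0.20). Psme2 stood at 340.4, 435 and 479 in FL and 181, 194 and 168 in GM cultures (1.21 ± 0.21), and its copy Psme2b differed by 1.16 ± 0.20. In these 4 genes each FL library exceeded each GM library. Psmb10 did not follow the other immune genes: it stood at 68.1, 77.8 and 89.8 in FL and 85.0, 87.9 and 80.3 in GM cultures, and the difference of -0.10 ± 0.18 was not called (adjusted p = 0.688). Cell type markers differed at t0 as well. All 6 mature DC markers were higher in FL cultures, with sums of 5490 to 6855 CPM against 1531 to 1826, as were 7 of 8 cDC1 and 7 of 8 neutrophil markers. All 9 monocyte and macrophage markers were lower, with sums of 931 to 1150 CPM against 21360 to 26100. Their part in the members' differences was not tested.

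Of the constitutive genes at t0, Psmb6 was lower in FL cultures, at 90.7, 105 and 112 CPM against 143, 154 and 136 (-0.49 ± 0.16), while Psmb5 and Psmb7 differed by -0.34 ± 0.14 and 0.13 ± 0.14. The lid genes Psmd8 and Psmd6 were lower, with differences of -0.64 and -0.29. Psme3 and Psme4 differed by 0.08 ± 0.08 and 0.31 ± 0.13. The call of Psmb6 was lost without FL t0 culture 91 or GM t0 replicate 2 (adjusted p = 0.0914 and 0.0728), and that of Psmd6 without FL t0 culture 95 or GM t0 replicate 2 (0.0630 and 0.0849). With the replicate number as a block, 7 members were higher and 6 lower (47.8% of all genes called). The 3 further genes lower were Psmb5, Psmd9 and Psmd13, and the 2 further genes higher were Psme4 and Psmd11.

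After 24 h in DMSO, 5 of 42 members were higher and 9 lower in FL than in GM cultures, where 41.4% of genes were called. This split depended on the scaling: it was 8 higher and 4 lower with median-of-ratios scaling, and 11 higher and 3 lower with plain library totals, which put the median of all genes at 0.16 against 0.01. Psmb9 stood at 269, 189 and 202 CPM in FL and 124, 140.0 and 133 in GM cultures (0.73 ± 0.15), and Psme2 at 1075, 529.9 and 556 in FL and 383, 444 and 382 in GM cultures (0.84 ± 0.21). Neither gene overlapped between the culture types. The alpha ring gene Psma1 was higher by 0.37 and Psme2b by 0.83. Without culture 91, Psme2 and Psme2b differed by 0.43 ± 0.13 and 0.43 ± 0.14, still called, and Psmb9 by 0.56 ± 0.14. Psmb8 differed by 0.59 ± 0.22, a call that rested on culture 91: without its DMSO library the difference was 0.14 ± 0.17 (adjusted p = 0.549). The Psmb8 call was also lost without any 1 of the GM DMSO libraries (0.0675 to 0.111). Psme1 differed by 0.48 ± 0.20 and was not called, and without culture 91 by 0.15 ± 0.14. Psmb5 and Psmb6 were lower, with differences of -0.38 and -0.53. The Psmb5 call was lost without 4 of the 6 libraries (FL culture 91 or 94, GM replicate 1 or 3; 0.0613 to 0.111) and that of Psmb6 without FL culture 95 (0.0648). Psmb7 and Psmb10 differed by 0.12 ± 0.14 and -0.13 ± 0.18, and Psme3 and Psme4 by -0.19 ± 0.08 and 0.28 ± 0.13. The lid genes Psmd6, Psmd8 and Psmd12 were lower, with differences of -0.55, -0.52 and -0.37. Without GM DMSO replicate 1, 8 members were called (31.7% of all genes). With the replicate number as a block, 7 members were higher and 13 lower (48.2% of all genes). The block added the calls of Psme1, Psme4, Psme3, Psmd2, Psmd7 and Psmd9, with 0.43 ± 0.16 for Psme1 (adjusted p = 0.0359), 0.27 ± 0.10 for Psme4 (0.0329) and -0.19 ± 0.08 for Psme3 (0.0461).

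The differences between culture types were also tested as such. For the 24 h change in DMSO, FL minus GM, edgeR called none of 42 members (4.84% of all genes). At an unadjusted p under 0.05 there were 5 members, and all genes were not counted this way. Psme1, Psme2, Psmb8 and Psmb9 differed by -0.56 ± 0.28, -0.37 ± 0.30, -0.27 ± 0.32 and -0.46 ± 0.21. Without the DMSO library of culture 91, 5 members were called, all lower in FL, where 10.4% of all genes were called. Without all of culture 91, 7 were called, all lower, where 14.8% of all genes were called, so both shares of members were near that of all genes. Among the 7 were Psme1 (-0.92 ± 0.19), Psme2 (-0.91 ± 0.19), Psmb8 (-0.68 ± 0.20) and Psmb9 (-0.63 ± 0.20). The response to 0.05 µM in FL cultures minus that to 0.1 µM in GM cultures sets unequal doses side by side. It called no member (1.67% of all genes), and 3 had an unadjusted p under 0.05, again without a count over all genes. Psma6 differed by 0.38 ± 0.27. Without the FL DMSO library of culture 91, Psma6 was called, with 0.75 ± 0.20 (adjusted p = 0.0456, 3.29% of all genes called). DESeq2, run as another tool, called none of the members in either of these comparisons.

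Levels per length, in CPM per kilobase of the union of annotated exons, give a rough ranking of genes. The union takes in the exons of all coding transcripts, so a gene with long annotated exons ranks lower. It held 3427 bases in Psmb1 against 859 in Psmb2, for example. Which transcripts the cells used was not tested. In GM cultures at t0 the highest members were Psme2 at 185 CPM per kilobase, Psmb6 at 181, Psme1 at 162 and Psmb8 at 156, followed by Psma6 and Psmb2. At 1 µM AZD5582 the order was Psme2 at 1172, Psme1 at 705, Psma6 at 380, Psmb8 at 361 and Psmb6 at 227. In FL cultures at t0 it was Psme2 at 429, Psme1 at 333 and Psmb8 at 283, and Psmb9 at 159 exceeded Psmb6 at 129. In GM cultures with DMSO, Psme1 stood at 309 and Psme2 at 413. The lid and ATPase genes were lower per length, with class medians of 48.9 and 67.9 in GM cultures at t0 against 122 for the alpha ring and 112 for the constitutive catalytic genes. The lowest were Psmd5 and Psmd9, the assembly chaperones, at 9.39 and 9.53, with unions of 4397 and 2597 bases. Across the 8 group means, Psme2 varied 6.76-fold, Psme1 4.40-fold, Psmd10 3.43-fold and Psmb9 2.92-fold, and at the other end Psme4 varied 1.24-fold and Psmc1 1.25-fold.

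Immune, activator and alpha ring members rose in the same comparison, and the promoters of those that the results turn on were read from the RefSeq promoter table (GRCm38.p6, not the build the counts were made on). The table held 36 of the 42 members. Windows of 250 bases before the start were searched on both strands for the antioxidant response element TGACNNNGC, the interferon-stimulated response element, the interferon gamma activated site TTCNNNGAA, and the kappaB motif. The kappaB motif was in at least 1 start window of 6 of 36 members (16.7%, against 8.23% of 27025 genes), namely Psma6, Psma7, Psmd11, Psmd12, Psmd13 and Psme4. The antioxidant element was in 5 (13.9% against 11.5%), among them Psmb5 and Psmb6, and the interferon-stimulated element in 3 (8.33% against 3.46%). The activated site was in 1, Psmb8 (2.78% against 8.13%). No match overlapped another. These are matches of letters, not binding sites, and the genes and stretches shown were chosen after their values and matches were seen. Stretches were trimmed to bases outside annotated exons, or to 30 bases round the motif. Psma6, the alpha ring gene with the largest rise, is shown from 250 to 51 bases before its start, at chr12:55398575-55398774 on the plus strand, with the kappaB motif in capitals. The table holds another start of Psma6, whose window at chr12:55383972-55384221 had none of the motifs, and the start with a match was chosen for display. Psmb5, the constitutive subunit, is shown at chr14:54618023-54618245 on the minus strand with the antioxidant element in capitals. Its immune counterpart Psmb8 is shown as 30 bases at chr17:34198087-34198116 on the plus strand with the activated site in capitals. Psme2, the activator with the largest rise, is shown as the 250 bases at chr14:55591102-55591351 on the minus strand, in which none of the 4 motifs was found.
Psma6: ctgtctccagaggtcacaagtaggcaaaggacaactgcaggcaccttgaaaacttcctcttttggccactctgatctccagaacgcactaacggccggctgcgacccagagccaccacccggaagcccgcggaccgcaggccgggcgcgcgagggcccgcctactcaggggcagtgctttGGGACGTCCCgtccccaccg
Psmb5: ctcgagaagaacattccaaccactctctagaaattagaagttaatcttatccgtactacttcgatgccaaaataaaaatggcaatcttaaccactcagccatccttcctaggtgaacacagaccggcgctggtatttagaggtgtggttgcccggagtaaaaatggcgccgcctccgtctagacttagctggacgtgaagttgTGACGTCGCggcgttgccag
Psmb8: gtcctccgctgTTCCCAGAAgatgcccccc
Psme2: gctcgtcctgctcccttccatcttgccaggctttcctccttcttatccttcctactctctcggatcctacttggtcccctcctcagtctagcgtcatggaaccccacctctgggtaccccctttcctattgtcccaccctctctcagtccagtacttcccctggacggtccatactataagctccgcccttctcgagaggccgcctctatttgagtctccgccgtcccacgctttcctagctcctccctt

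Genes that assemble the proteasome or feed it are read against the shares given above for all genes, at 1 µM 55.1% called and 26.9% higher. Of 19 assembly and associated factors, 14 rose and 1 fell at 1 µM, with a median of 0.36. At 0.1 µM 10 rose and none fell, at 0.5 µM 10 rose and 1 fell, and over 24 h in DMSO 5 rose and 5 fell. The shuttle receptor gene Rad23b differed by 0.93 ± 0.08, the unfoldase gene Vcp by 1.02 ± 0.09 and its cofactor gene Nploc4 by 0.98 ± 0.10. The gene that fell was the assembly chaperone Psmg1 (-0.60 ± 0.15). Of 5 ubiquitin genes, 3 rose at 1 µM and none fell, led by Ubb (0.59 ± 0.13). At 0.1 µM none of the 5 rose and 1 fell, and at 0.5 µM 1 rose and 1 fell. In FL cultures with 0.05 µM, 1 of the 19 rose, the ubiquilin gene Ubqln4 (1.19 ± 0.18), and no ubiquitin gene was called.

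Of 16 genes for transcription factors and their partners known to act on proteasome genes, 8 rose and 3 fell at 1 µM in GM cultures, where 26.9% of all genes were higher and 28.2% lower. Irf1, an interferon-induced factor of immune subunit genes, rose by 1.61 and Nfkb2, the precursor of a non-canonical NF-kB subunit, by 1.41. Nfe2l2, the factor of the oxidative stress response, fell, with a difference of -1.24. In FL cultures with 0.05 µM, Nfe2l2 was the one called (-1.12 ± 0.21), and Irf1 differed by 1.49 ± 0.45 and was not called. Over 24 h in DMSO, 13 of the 16 rose in GM cultures and none fell (27.2% of all genes higher), with Irf1 at 3.14, Relb at 3.05 and Nfkb2 at 2.31. Of 12 genes of class I peptide loading, 6 rose and 2 fell at 1 µM, and 55.1% of all genes were called there. The chaperone genes Tapbpl and Tapbp differed by 1.45 ± 0.13 and 1.01 ± 0.10 and B2m, the light chain of class I, by 0.89 ± 0.15. Tap1, the peptide transporter gene that overlaps Psmb9 on the other strand in the annotation, differed by 0.43 ± 0.10, so reads of the 2 genes may be mixed if strand was not used in counting. All 6 markers of mature DCs rose at 1 µM in GM cultures, and 1 of 6 was called with 0.05 µM in FL cultures. The sum of their 6 genes, of which Relb is also among the 16 factors, ran from 8368 to 11110 CPM with DMSO and 44370 to 61640 with 1 µM in GM cultures, and from 10380 to 21680 with DMSO and 37890 to 47170 with 0.05 µM in FL cultures. Monocyte and macrophage markers ran from 27130 to 32530 CPM with DMSO and 3255 to 4891 with 1 µM in GM cultures, and neutrophil markers from 345 to 568 and 6.50 to 11.7, with no marker of either list at 0, but 7 of the 8 neutrophil markers under 1 CPM at 1 µM. The part of these cell types in the members' changes was not tested.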

How the data were processed

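RNA libraries of 24 samples were analysed from the deposited tables of raw counts per gene. Per the submitters' processing notes, the authors used STAR 2.7.3a, HTSeq 0.12.4, the build GRCm39 and DESeq2 1.30.1. The kit is stranded per the labels' protocols, but neither the counter's strand option nor the annotation release was found (not given in the sources used here). Of 42 members, 15 overlap another gene model in GENCODE M21. Psmb7, Psmb8, Psmb9, Psmb10 and Psme1 are among those that do so on the other strand, so their counts are uncertain if strand was not used. Psmb5, Psmd1 and Psme2b overlap a model on the same strand, which the use of strand would not resolve. Lines that name no gene held 11.0% to 16.4% of the counts and were left out. A symbol was found for 52133 of 55414 gene identifiers.

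Groups came from the sample titles. Counts were tested in R 4.3.3 with edgeR 4.0.16 (filterByExpr, TMM scaling, glmQLFit with robust dispersion, glmQLFTest, group means, no covariate), and p-values were adjusted by the Benjamini-Hochberg method over all genes tested. GM comparisons were fitted on 15 libraries (16152 genes), FL comparisons on 9 (15961), and comparisons between culture types on all 24 (17262), and 42 of 42 members passed the filter in each. SE is the absolute log2 difference divided by the square root of F. The scripts were tested on simulated data with 200 changed genes. Counts were drawn for each library without pairing, and the changed genes came from all but the lowest genes, not from the members. For 1 µM against DMSO in GM cultures they recovered 97% of 2-fold changes and 63% of changes of 1 fixed smaller fold. Other sizes were not simulated. For 0.05 µM against DMSO in FL cultures they recovered 1% and 0%, and for FL against GM at t0 66% and 21%. A gene not called with 0.05 µM in FL cultures may thus still have changed. Whether libraries came from separate mice is not given, so p-values measure the spread between these libraries, which may be technical.

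The members, lists and tests were chosen with earlier results of these data known. Genes named in each comparison were Psmb5 to Psmb10 and Psme1 to Psme4, with the 3 largest rises and falls among other called members and up to 3 genes of the smallest p per list; further genes named were chosen after their values were seen. Same-numbered libraries deviated together in FL cultures (9 of 9 correlations over 0.1, from 0.123 to 0.640). In GM cultures they did so more weakly, with 3 of 30 over 0.1 and all positive, from 0.0135 to 0.212. GM libraries of different number reached 0.0462 at most. The numbers were read as cultures in FL only, but a weak pairing of GM libraries cannot be dismissed. The main fits used no block in either culture type. Alternatives were DESeq2 1.42.0, other scalings, filters and models, the replicate block, and each library left out. Plain library totals and leaving out culture 91 were added after the data were seen. Figures were drawn with matplotlib 3.10.9.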

Additional observations from a re-analysis of the deposited data

Results flagged for a closer look

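The tests of a difference between culture types called no member, and 5 genes of the lists of assembly factors, ubiquitin genes, regulators and class I loading. For the 24 h change in DMSO, FL minus GM, the signalling genes Stat2 and Irf9 differed by -1.12 and -0.75, and the chaperone gene Calr by -0.82. For the response to AZD5582, at 0.05 µM in FL and 0.1 µM in GM cultures, the ubiquilin gene Ubqln4 differed by 0.83 and Pdia3, a thiol oxidoreductase gene of class I loading, by 0.67. Values are log2 differences from edgeR's quasi-likelihood test, and the doses compared were unequal. Genes of the cell type markers were called too. For the 24 h change, 3 of 8 cDC1 markers, 3 of 7 general DC markers and 1 marker each of monocytes, plasmacytoid DCs and mature DCs were lower, and for the response 1 cDC1 marker was lower and 1 monocyte marker higher.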

How the results depend on the processing

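Counts of members called are given for the alternatives that moved them by more than 1.5 times, and the cause was not tested. Shares of all genes called in the same fit are in brackets. With all 24 libraries in 1 model, 13 members were called at 0.1 µM in GM cultures (22.4%). For 1 µM against 0.1 µM 0 were called (2.55%). In FL cultures 12 were called for 0.05 µM (15.8%) and 19 for the 24 h change (30.7%). With only the compared groups in the model, 1 was called for 1 µM against 0.1 µM (12.3%). In FL cultures 0 were then called for 0.05 µM (0.207%) and 1 for the 24 h change (3.92%). Without a filter on low counts, 3 were called for that change (4.55%) and 8 for FL against GM in DMSO (20.8%). DESeq2 called 3 with 0.05 µM in FL cultures (7.64%). Plain library totals gave 6 for 1 µM against 0.1 µM (18.1%), and turned Psme3 and Psme4 at 1 µM to -0.199 and -0.0127. Leaving out culture 91 gave 10 for 0.05 µM (14.1%) and 7 for the difference in 24 h change (14.8%).

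With the replicate block, 10 members were called for the 24 h change in FL cultures (19.5% of all genes called). For FL against GM at t0 13 were called (47.8%). The block moved no other count by more than 1.5 times. It called 25, 31 and 37 at the 3 GM doses (42.2%, 54.9% and 56.4%) and 17 for 1 µM against 0.1 µM (21.4%). For the 24 h change in GM cultures it called 26 (49.3%), and for 0.05 µM 1 (6.88%). For FL against GM in DMSO it called 20 (48.2%). For the differences between culture types in 24 h change and in response it called 0 (9.76% and 4.28%).

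With each library left out in turn, counts ran from 16 to 21 at 0.1 µM, 27 to 31 at 0.5 µM and 30 to 34 at 1 µM. Shares of all genes called there ran from 32.2% to 38.7%, 45.6% to 50.5% and 47.8% to 53%. For 1 µM against 0.1 µM counts ran from 1 to 22 (11% to 17.7%). They ran from 16 to 23 for the 24 h change in GM cultures (39.4% to 42.2%) and 0 to 5 in FL cultures (0.0787% to 8.86%). For 0.05 µM they ran from 0 to 10 (0.103% to 12%). FL against GM gave 6 to 9 at t0 (32.6% to 34.6%) and 8 to 16 in DMSO (31.7% to 40.5%). The difference in 24 h change gave 0 to 5 (2.75% to 10.4%) and that in response 0 to 1 (0.526% to 3.29%).

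In plain CPM the core genes summed to 2042 in GM t0, 2212 at 0.5 µM and 2145 in FL t0, the regulatory genes to 2198 in GM t0, 1620 with DMSO, 1714, 1723 and 1727 at the 3 doses and 2166 in FL t0, the immune genes to 475.5 in GM t0 and 871.7 in FL t0, and the activators Psme1 and Psme2 to 396.7 in GM t0, 1569 at 0.5 µM and 913.3 in FL t0. Each of these moved by more than the spread between replicates. Groups of 3 libraries limit the precision, most in FL cultures, where the biological coefficient of variation was 0.390 against 0.146 in GM cultures.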
